A study of Mus musculus with 9 samples.

Results

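The miR-302/miR-367 cluster is a group of 5 miRNA hairpins that are processed from 1 primary transcript. Its 7 mature arms listed here were taken by name from the table of mature miRNAs: mmu-miR-302a-3p, mmu-miR-302a-5p, mmu-miR-302b-3p, mmu-miR-302b-5p, mmu-miR-302c-3p, mmu-miR-302d-3p and mmu-miR-367-3p. The prefix mmu, for mouse, is left out from here on. They are 7 of 986 rows. Levels are normalised reads on an RPM scale (nRPM), and all 7 arms averaged 10 nRPM or more over the 8 genotype libraries, the level from which miRNAs were tested. The question was whether the hairpins of this transcript moved together.

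Small RNA was sequenced from mouse embryos at embryonic day 9.5 that carried deletions within another miRNA cluster, miR-17~92. What was profiled is the embryo left after its heart and tail bud were isolated. The 8 genotypes had 1 library each, all labelled female: wild type with the complete cluster, miR-17 deleted (ΔmiR-17), miR-18 deleted (ΔmiR-18), miR-19 deleted (ΔmiR-19), miR-92 deleted (ΔmiR-92), miR-17,18 deleted (ΔmiR-17,18), miR-17,18,92 deleted (ΔmiR-17,18,92, which keeps miR-19 only) and the miR-17~92 knockout (full deletion). No genotype carried a labelled change in the miR-302/miR-367 locus, and the labels name no Cre driver and no strain. A library of reads that were given to no genotype entered no comparison of genotypes. With 1 library per genotype, a difference between genotypes and a difference between libraries cannot be told apart, and in a whole-tissue sample fewer cells of a type cannot be told apart from less RNA per cell.

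miRNAs of this cluster are known as abundant products of pluripotent cells and of the early embryo, where they favour proliferation and restrain differentiation. A miRNA hairpin is cut into a duplex, from which the guide arm is retained in an Argonaute protein and the other arm is mostly lost. The guide pairs with target mRNAs through its seed, bases 2 to 8. For miR-302a to miR-302d the 3p arm is the known guide, and for miR-367 likewise.

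The hairpins lie on the plus strand of chromosome 3 in the GRCm38.p6 assembly, within 580 bases (chr3:127545228-127545807). In transcript order these are Mir302b (127545228 to 127545301), Mir302c (127545363 to 127545430), Mir302a (127545496 to 127545564), Mir302d (127545624 to 127545689) and Mir367 (127545733 to 127545807). All 5 lie in an intron (127544279 to 127545825) of Larp7, which is annotated on the minus strand (127536714 to 127553349), and none overlaps an exon of Larp7. These positions are those of the annotation, whereas the deposited table was made with mm9.

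The mature sequences show why the arms fall into separate targeting groups and why some of their reads are hard to tell apart. RefSeq's table for GRCm38.p6 held 6 of the 7 arms, all but miR-302a-3p, and these 6 are printed 5′ to 3′ with the seed in capitals.
miR-302b-3p: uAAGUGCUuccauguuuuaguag
miR-302d-3p: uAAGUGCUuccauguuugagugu
miR-302c-3p: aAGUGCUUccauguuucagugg
miR-367-3p: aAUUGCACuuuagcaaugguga
miR-302a-5p: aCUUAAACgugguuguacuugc
miR-302b-5p: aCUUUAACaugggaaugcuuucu

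miR-302b-3p and miR-302d-3p share the seed AAGUGCU with miR-291a-3p, miR-294-3p and miR-295-3p of the miR-290 to miR-295 cluster. The annotated miR-302c-3p starts 1 base later in the shared sequence, so its bases 2 to 8 read AGUGCUU. miR-302b-3p and miR-302d-3p are identical over their first 17 bases, and each shares a run of 16 bases with miR-302c-3p. For reads that fit more than 1 place, the counting rules are not given in the sources used here, so the division of reads among these 3 arms is uncertain. The same holds for the fourth guide, miR-302a-3p: the hairpin Mir302a holds the first 18 bases of miR-302b-3p. miR-367-3p has a seed of its own within the cluster, AUUGCAC, which 5 other miRNAs of the table carry: miR-92a-3p, miR-92b-3p, miR-25-3p, miR-32-5p and miR-363-3p. The series therefore deleted a seed relative of miR-367-3p when it deleted miR-92.
miR-367-3p: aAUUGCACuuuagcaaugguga
miR-92a-3p: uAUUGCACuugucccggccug
miR-25-3p: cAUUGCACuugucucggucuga

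miR-17-5p, another guide of the deleted cluster, has a seed that is offset by 1 base from that of miR-302b-3p.
miR-302b-3p: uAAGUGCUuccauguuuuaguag
miR-17-5p: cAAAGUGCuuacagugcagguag

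The genotype libraries held between 6564461 and 18481223 reads of mature miRNAs, so that 1 read was worth between 0.0624 and 0.157 nRPM. Intervals given here are 95% intervals of the read counts and cover counting error only. They treat reads as independent. Reads without molecular identifiers are not independent molecules, so the intervals may be too narrow. The deleted guide arms checked the labels: miR-17-5p, miR-18a-5p and miR-19a-3p were at 1.04% of wild type or less wherever their family was deleted and at 32.8% or more where it was kept. Of 7 fixed lists of tissue markers, all had detected members, including the 3 heart miRNAs miR-208a-3p, miR-208b-3p and miR-499-5p, whose sum was 41.2 nRPM in wild type and between 52.2 and 256 nRPM in the mutants. The 3 did not move alike: miR-208a-3p and miR-499-5p were lowest in wild type (6.27 and 10.3 nRPM), and miR-208b-3p, at 24.6 nRPM in wild type, was lower in all mutants but the full deletion (28.4 nRPM). Of the list of the placenta-rich Sfmbt2 cluster, 2 of 4 names were found and 1, miR-669c-5p, was measurable, at 840 nRPM in wild type against 189 to 419 nRPM in the mutants. The other, miR-466f-3p, had 0 reads outside ΔmiR-18. Every ratio to wild type below rests on this 1 library.

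Summed over its 7 arms, the cluster was highest in ΔmiR-17,18 (9411 nRPM), followed by ΔmiR-17 (8681 nRPM), the full deletion (8299.6 nRPM), ΔmiR-92 (7976 nRPM), wild type (6861 nRPM), ΔmiR-18 (6789 nRPM), ΔmiR-19 (6776 nRPM) and ΔmiR-17,18,92 (5792 nRPM). The sum averaged 7573 ± 1209 nRPM (SD over 8 libraries of different genotype). The highest library, ΔmiR-17,18, was 1.62 times the lowest, ΔmiR-17,18,92 (95% interval 1.61 to 1.64). Wild type lay within the range of the mutants, and ΔmiR-18 and ΔmiR-19 differed from it by about 1% (0.989 and 0.988 of wild type), a difference whose sign turned with the scaling. ΔmiR-17,18,92 stood at 0.844 of wild type, and scaled to the plain totals it lay above wild type (log2 ratio 0.13, where the median of all miRNAs moved to 0.39).

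The guide arms made up most of the reads. miR-302b-3p was the most abundant arm in every library, and its level fell in the order ΔmiR-17 (3659 nRPM), full deletion (3366), ΔmiR-17,18 (2770), ΔmiR-19 (2599), wild type (2406), ΔmiR-92 (2291), ΔmiR-17,18,92 (2154) and ΔmiR-18 (2147). ΔmiR-17 and the full deletion were highest, and the intervals of the 2 lowest libraries, ΔmiR-17,18,92 and ΔmiR-18, overlapped. The highest was 1.70 times the lowest, less than the median over all 538 miRNAs outside miR-17~92, which was 2.51 on values with 1 nRPM added (quartiles 1.99 and 3.61).

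miR-302d-3p, which has the same seed, was most abundant in ΔmiR-17 (1958 nRPM), ΔmiR-17,18 (1939 nRPM) and wild type (1815 nRPM). Lower levels were found with ΔmiR-19 (1420 nRPM), full deletion (1377), ΔmiR-92 (1361), ΔmiR-17,18,92 (1231) and ΔmiR-18 (948). ΔmiR-18 was the lowest for both miR-302b-3p and miR-302d-3p in the deposited scaling. For miR-302b-3p, ΔmiR-17,18,92 was the lowest with totals outside miR-17~92, median-ratio factors and TMM. For miR-302d-3p the highest library was 2.07 times the level in ΔmiR-18. The full deletion, next to the top for miR-302b-3p, was below wild type for miR-302d-3p, with an interval that overlapped those of ΔmiR-19 and ΔmiR-92.

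miR-302a-3p, the guide of the third hairpin, had its top level in ΔmiR-17 (1501 nRPM), then full deletion (1420), ΔmiR-17,18 (1342), ΔmiR-92 (1308), ΔmiR-19 (1253), ΔmiR-18 (1082), ΔmiR-17,18,92 (874) and wild type (815). Wild type was the lowest of the 8 libraries, with ΔmiR-17,18,92 next at 1.07 times its level (1.04 to 1.11).

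miR-302c-3p was the least abundant of the miR-302 guides. It held 388 nRPM in the full deletion, with ΔmiR-17,18 (329), ΔmiR-19 (287), ΔmiR-92 (259), ΔmiR-17,18,92 (212), ΔmiR-17 (203) and ΔmiR-18 (185) below it. Wild type held 55.8 nRPM, from 356 reads. Wild type stood below all mutants, between 3.32 times (ΔmiR-18, 2.97 to 3.71) and 6.96 times (full deletion, 6.24 to 7.78), and this order held under all 5 scalings that were compared. The 7 mutants among themselves differed by 2.10-fold, which placed miR-302c-3p at percentile 36.2 of the 538 miRNAs for spread. With wild type included it was at percentile 93.1. Wild type was the lowest library for 13.9% of all miRNAs tested.

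miR-367-3p, the guide of the last hairpin of the transcript, had the widest spread of the 7 arms. Its levels came in a high set of 3 libraries, ΔmiR-17,18 (2211 nRPM), ΔmiR-92 (1891 nRPM) and ΔmiR-18 (1582 nRPM), and a low set of 5. The low set held the full deletion (718 nRPM), ΔmiR-17,18,92 (499.97), ΔmiR-17 (489), wild type (285) and ΔmiR-19 (162). The highest was 13.7 times the lowest (13.0 to 14.4), at percentile 98.5 of all miRNAs for spread, and at percentile 98.7 without wild type. The high set did not follow 1 deleted family: miR-18 was deleted in ΔmiR-18 and ΔmiR-17,18 and also in ΔmiR-17,18,92 and the full deletion, which were low.

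The 2 arms of the 5p side among the 7 were highest in wild type. miR-302a-5p was at 1464 nRPM in wild type and between 812 (ΔmiR-17,18) and 1044 nRPM (ΔmiR-19) in the mutants, where it varied less than any other arm of the cluster (1.29-fold, percentile 1.12 of all miRNAs for spread). miR-302b-5p was close to the level of testing, at 20.05 nRPM in wild type (128 reads) and between 7.76 (ΔmiR-17,18,92) and 12.3 nRPM (ΔmiR-92) in the mutants. The intervals of all neighbours in the order of the 7 mutants overlapped for miR-302b-5p. Wild type was the highest library for 11.5% of all miRNAs. Both arms were below wild type in all 7 mutants under each of the 5 scalings, and all 7 comparisons share the wild-type library.

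**Figure D1:**
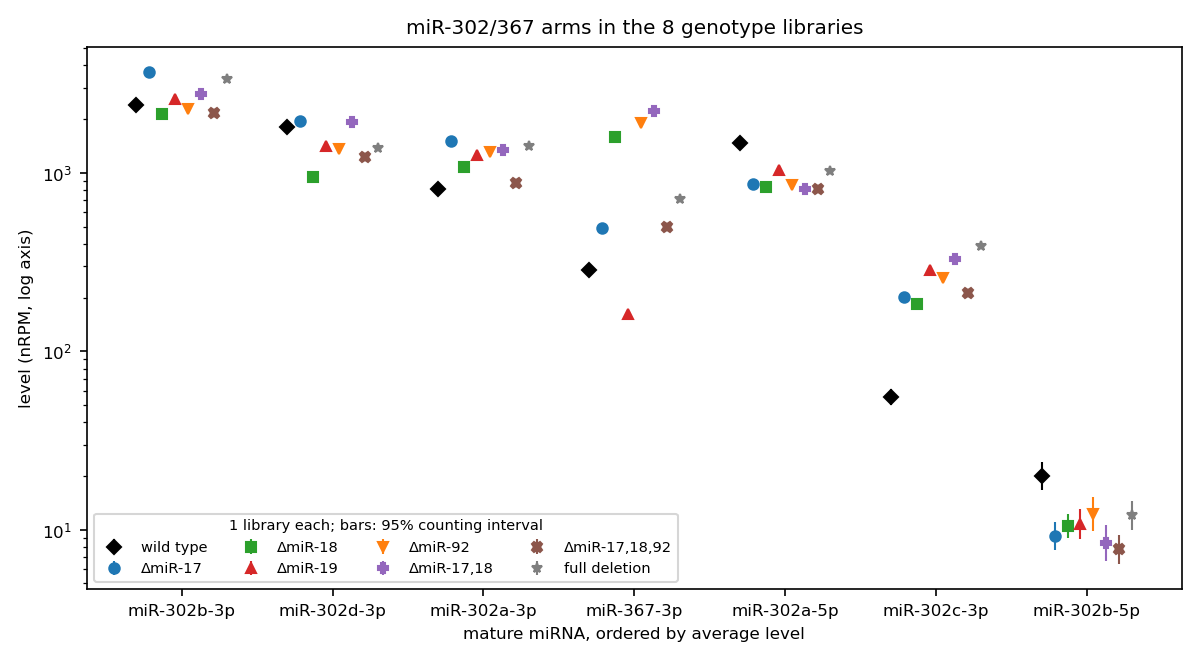
Level of the 7 arms (x axis, ordered by average) in nRPM on a log axis, with 1 point per genotype library and bars for the 95% counting interval. Wild type (black diamonds) is the lowest library for miR-302c-3p at 55.8 nRPM and the highest for miR-302a-5p at 1464 nRPM, and miR-367-3p spreads from 162 to 2211 nRPM.

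Read as ratios to wild type, 14 of the 49 pairs of an arm and a mutant passed 2-fold, 11 higher and 3 lower. Over all 538 miRNAs the share past 2-fold was 18% of pairs, with 8.82% higher and 9.16% lower. By mutant, the share of all miRNAs that were higher was 12.3% (ΔmiR-17,18), 11.9% (ΔmiR-17,18,92), 8.92% (full deletion, ΔmiR-18 and ΔmiR-92 alike), 5.58% (ΔmiR-19) and 5.2% (ΔmiR-17). The share that was lower was 12.1% (ΔmiR-17,18), 9.85% (full deletion), 9.67% (ΔmiR-19), 9.11% (ΔmiR-17,18,92), 8.36% (ΔmiR-92), 8.18% (ΔmiR-18) and 6.88% (ΔmiR-17). The 14 pairs came from 3 arms: miR-302c-3p was higher in all 7 mutants, miR-367-3p was higher in ΔmiR-18 (5.55-fold), ΔmiR-92 (6.63-fold), ΔmiR-17,18 (7.75-fold) and the full deletion (2.52-fold), and miR-302b-5p was lower in ΔmiR-17 (0.462), ΔmiR-17,18 (0.423) and ΔmiR-17,18,92 (0.387). The 3 lower pairs had counting intervals that reached back across 2-fold. miR-302b-3p, miR-302d-3p, miR-302a-3p and miR-302a-5p passed 2-fold in no mutant. Scaled to the plain totals, 14 pairs were higher and 1 lower. Against the median of the other 7 libraries in place of wild type, 4 pairs passed, all of miR-367-3p: higher in ΔmiR-18, ΔmiR-92 and ΔmiR-17,18 and lower in ΔmiR-19.

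**Figure D2:**
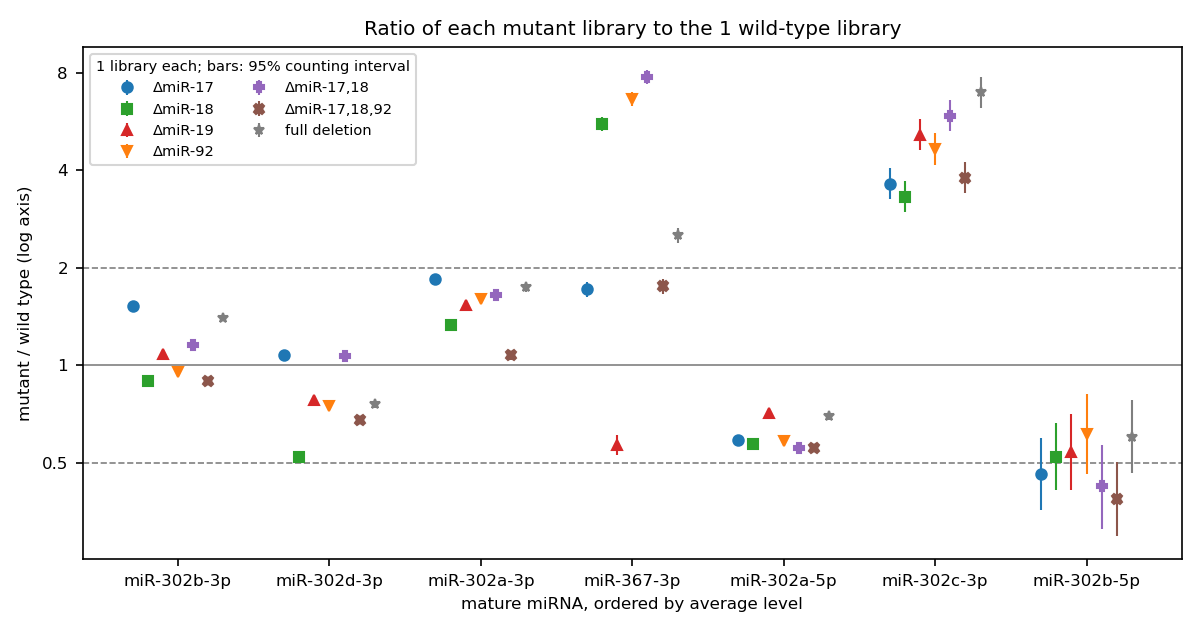
Ratio of each mutant library to the wild-type library for the 7 arms, on a log axis with dashed lines at 2-fold and bars for the 95% counting interval. All 7 mutants lie between 3.32 and 6.96 times wild type for miR-302c-3p, and the points of miR-367-3p run from 0.568 to 7.75.

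Shares within a library do not depend on how libraries are scaled. miR-302b-3p took 35.4 ± 5.05% of the reads of the 7 arms (SD over 8 libraries), miR-302d-3p 19.9 ± 3.92% and miR-302a-3p 15.8 ± 2.06%. The share of miR-367-3p was nearly equal in its 3 high libraries, ΔmiR-92 (23.7%), ΔmiR-17,18 (23.5%) and ΔmiR-18 (23.3%). It was much smaller with full deletion (8.65%), ΔmiR-17,18,92 (8.63%), ΔmiR-17 (5.63%), wild type (4.16%) and ΔmiR-19 (2.39%). miR-302c-3p took 0.813% of the reads in wild type and up to 4.67% in the full deletion, and miR-302a-5p took 21.3% in wild type and as little as 8.63% in ΔmiR-17,18.

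**Figure D3:**
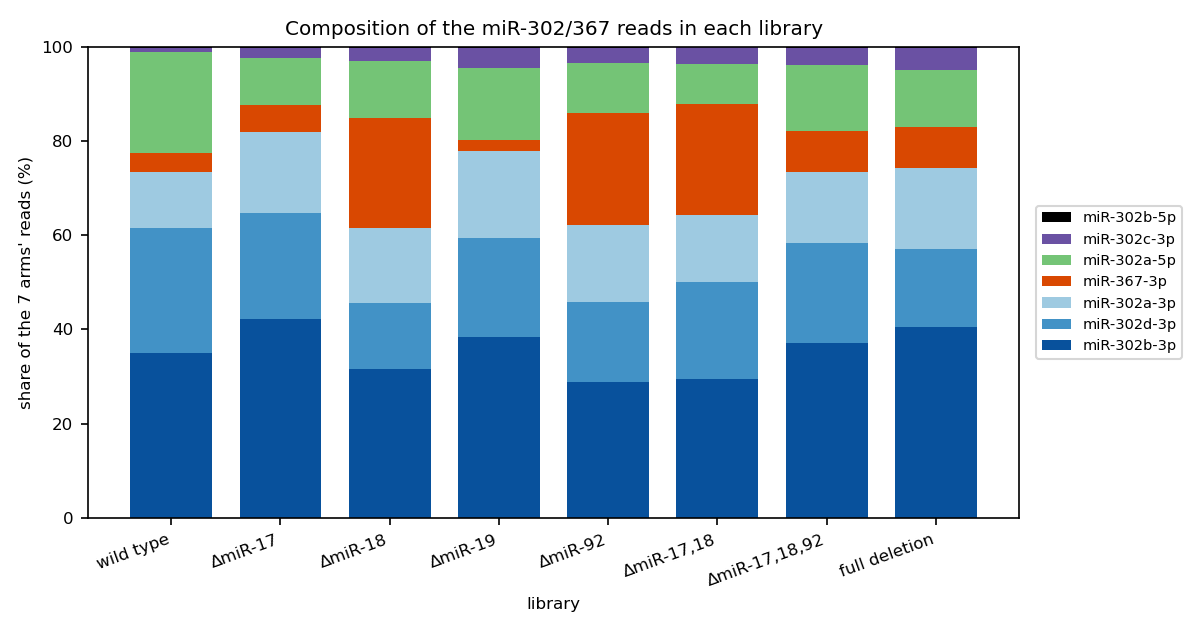
Share of each arm in the reads of the 7 arms, as stacked bars that sum to 100% for each of the 8 libraries. The orange segment, miR-367-3p, spans 2.39% in ΔmiR-19 to 23.7% in ΔmiR-92, and the green segment, miR-302a-5p, is widest in wild type at 21.3%.

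The division of reads between the arms of 1 hairpin was compared next, because both arms leave the same precursor. Hairpins are printed from RefSeq (GRCm38.p6) with the mature arms that the RefSeq table lists in capitals (for Mir302a the 5p arm alone), for the miRNAs whose arms shifted between libraries and for miR-367.
Mir302a: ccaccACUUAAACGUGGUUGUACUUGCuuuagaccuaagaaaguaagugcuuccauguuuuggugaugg
Mir302c: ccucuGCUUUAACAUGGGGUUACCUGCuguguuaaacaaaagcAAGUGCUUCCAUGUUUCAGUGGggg
Mir367: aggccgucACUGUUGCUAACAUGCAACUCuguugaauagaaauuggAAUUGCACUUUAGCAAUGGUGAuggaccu

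For miR-302a the 5p arm made up 64.2% of the reads of both arms in wild type (95% Clopper-Pearson interval 63.5 to 65.0). Among the mutants this 5p share ran from ΔmiR-17,18,92 (48.2%) down through ΔmiR-19 (45.5%), ΔmiR-18 (43.5%), full deletion (41.8%), ΔmiR-92 (39.5%), ΔmiR-17,18 (37.7%) and ΔmiR-17 (36.5%). The 5p arm was thus the more abundant arm in the wild-type library and the less abundant in each of the 7 mutant libraries. The mutants averaged 41.8 ± 4.24% (SD, n = 7).

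For miR-302c, whose 5p arm is listed in the table beside the 7 arms at an average of 144.5 nRPM, the 5p share was 72.7% in wild type (70.2 to 75.1). The mutants followed with ΔmiR-19 (47.2%), ΔmiR-18 (46.2%), ΔmiR-17 (43.8%), ΔmiR-17,18,92 (38.3%), ΔmiR-92 (28.5%), ΔmiR-17,18 (24.2%) and full deletion (19.6%). Here too wild type lay above all mutants. The level of miR-302c-5p itself, 148 nRPM in wild type, lay inside the range of the mutants (94.6 to 257 nRPM), while that of miR-302c-3p lay below it.

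miR-302b and miR-302d kept mainly the 3p arm in every library. The 5p share of miR-302b was 0.827% in wild type (0.690 to 0.982) and 0.252% to 0.534% in the mutants, and that of miR-302d was 2.02% in wild type and 1.38% to 4.66% in the mutants. The 5p share was highest in wild type for 3 of the 4 miR-302 hairpins, as for 9.47% of the 169 hairpins with both arms measured. Of the miR-290 to miR-295 cluster, miR-292 (92.0% in wild type, 76.8% to 85.4% in the mutants) and miR-293 (62.6%, 12.7% to 51.9%) had it highest in wild type too. For miR-291a (69.2%, 59.2% to 88.2%) and miR-291b (93.4%, 75.4% to 96.2%) wild type lay inside the range of the mutants. Wild type also lay outside that range in the levels of miR-208a-3p, miR-499-5p and miR-669c-5p. These levels and the depth of the wild-type library (7070844 reads) stand beside its higher 5p shares, and their part in them was not tested.

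**Figure D4:**
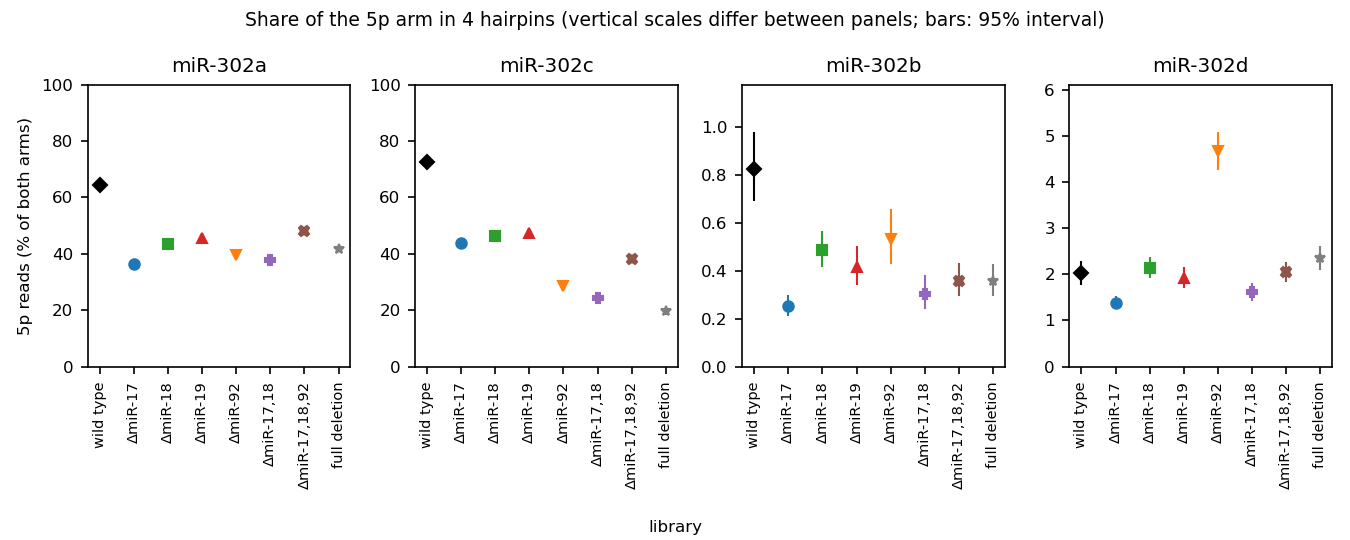
Reads of the 5p arm as a percentage of both arms (y axis, starting at 0, with its own scale in each panel) for 4 hairpins in the 8 libraries, with 95% intervals. Wild type is highest for miR-302a (64.2%), miR-302c (72.7%) and miR-302b (0.827%), and ΔmiR-92 is highest for miR-302d (4.66%).

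Whether the hairpins moved together was asked of the 5 guide arms, which give 10 pairs over the 8 libraries, on log2 values with 1 nRPM added. Pearson's r ranged from -0.18 to 0.74 with a median of 0.31, and it was positive for 7 of 10 pairs. Over all 144453 pairs of the 538 miRNAs the median was 0.00 and 49.8% were positive, with quartiles at -0.31 and 0.31. The median of the guide pairs thus lay at the upper quartile of all pairs.

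No pair passed the threshold of 0.05 after Benjamini-Hochberg adjustment over the 10 pairs, by Pearson's r or by Spearman's rho. The highest correlation was between miR-302c-3p and miR-302a-3p (r = 0.74, two-sided exact permutation p = 0.0192, adjusted p = 0.192, and rho = 0.57, exact permutation p = 0.151, adjusted p = 0.504). It fell to 0.37 without wild type and the full deletion, the 2 libraries farthest from the median of miR-302c-3p. With 1 of them left out, r was 0.48 without wild type and 0.71 without the full deletion, so it leaned mainly on wild type. Without ΔmiR-17 this pair passed (r = 0.85, exact permutation p = 0.00337, adjusted p = 0.0337). miR-302b-3p and miR-302a-3p had r = 0.72 (exact permutation p = 0.0483, adjusted p = 0.241) and rho = 0.79 (exact permutation p = 0.0279, adjusted p = 0.140), with r = 0.51 without ΔmiR-17 and the full deletion. The pair with a shared seed and 17 identical first bases, miR-302b-3p and miR-302d-3p, had r = 0.60 (exact permutation p = 0.121, adjusted p = 0.403) and rho = 0.83 (exact permutation p = 0.0154, adjusted p = 0.140), with r = 0.80 without ΔmiR-17 and the full deletion.

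The pairs of miR-367-3p were the weaker ones by median. Its 4 pairs with the miR-302 guides had a median r of 0.077 (-0.18 to 0.35), against 0.46 for the 6 pairs among the miR-302 guides (-0.17 to 0.74), and this difference between the sets was not tested. Its nearest neighbour on the transcript, miR-302d-3p, had the lowest correlation with it (r = -0.18, exact permutation p = 0.669, adjusted p = 0.721, and rho = -0.24, exact permutation p = 0.582, adjusted p = 0.728). The sign of this pair rested on ΔmiR-18: r was 0.10 without it and 0.19 without ΔmiR-17 and ΔmiR-18. Without ΔmiR-17,18 it was -0.53. Between the 2 arms of 1 hairpin, r was -0.43 for miR-302a, -0.25 for miR-302c, -0.09 for miR-302b and 0.26 for miR-302d, given as descriptions over the 8 libraries. Without the 2 libraries farthest from the median of the 3p arm these values were 0.16, -0.13, 0.01 and 0.01.

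**Figure D5:**
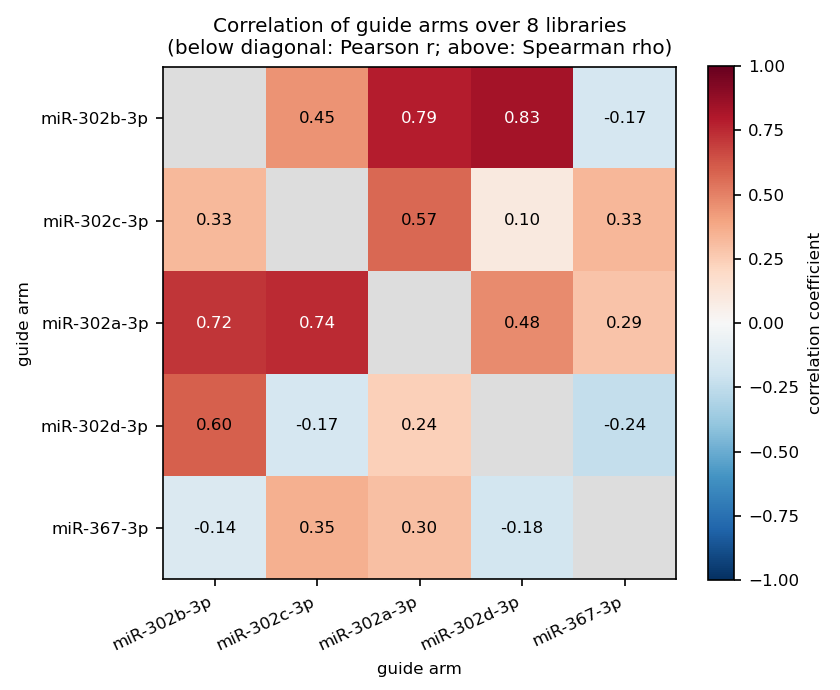
Correlation of the 5 guide arms over 8 libraries on log2 values, with Pearson's r below the diagonal and Spearman's rho above it, coloured from -1 (blue) to 1 (red). The warmest cells above the diagonal are miR-302b-3p with miR-302d-3p (rho = 0.83) and with miR-302a-3p (rho = 0.79). Below it they are miR-302a-3p with miR-302c-3p (r = 0.74) and with miR-302b-3p (r = 0.72). The row of miR-367-3p runs from -0.18 to 0.35.

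The allelic series was read with 1 additive model, in which each miRNA has a log2 change for the loss of each of the 4 families of miR-17~92 (limma, 3 residual degrees of freedom, Benjamini-Hochberg adjustment over the 538 miRNAs outside miR-17~92). None of the 28 tests of the 7 arms passed an adjusted p of 0.05, and 0 had an unadjusted p below 0.05. The background was the same: 0% of the 538 miRNAs passed for each of the 4 terms, and the number with an unadjusted p below 0.05 was 19 (miR-18 term), 17 (miR-19), 11 (miR-17) and 7 (miR-92). On the recovered reads, edgeR's quasi-likelihood test called 0 of 28 with 0 unadjusted, and DESeq2 called 0 with 1 unadjusted. That one was miR-367-3p for the loss of miR-19 (DESeq2 log2 change -1.82, adjusted p = 0.607), the same arm and term that came nearest to a call in limma (-1.45 ± 0.81 SE, limma adjusted p = 0.968).

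The estimates for miR-367-3p were 1.29 ± 0.81 (SE) for the loss of miR-18, 0.50 ± 0.76 with miR-92, -0.40 ± 0.81 with miR-17 and -1.45 ± 0.81 with miR-19. Those of miR-302b-3p had a standard error of 0.28 for the same first term. The estimates of miR-367-3p depended on single libraries. For miR-18 its estimate ran from 0.85 without ΔmiR-17,18 to 2.51 ± 0.44 without ΔmiR-92 (SE, limma adjusted p = 0.0743), and the latter passed the threshold only where the rows of miR-17~92 itself were counted in the adjustment (limma adjusted p = 0.0152). The sign turned for miR-92, from -1.93 without ΔmiR-92 to 1.42 without ΔmiR-17,18,92, and for miR-17, from -0.84 without ΔmiR-17,18 to 0.82 without ΔmiR-92. The estimate for miR-19 stayed negative, between -2.11 without ΔmiR-17,18,92 and -0.23 without ΔmiR-92, and was -0.70 without ΔmiR-19. The median of the 7 arms was 0.30 (all miRNAs tested, 0.00) with the loss of miR-17, 0.18 (-0.01) with miR-19, -0.07 (0.02) with miR-92 and -0.17 (0.02) with miR-18. miR-302c-3p, which was above wild type in every mutant, had estimates between 0.28 ± 0.53 (miR-92) and 0.81 ± 0.56 (miR-19). These too moved with single libraries: without ΔmiR-92 the miR-92 estimate of miR-302c-3p was -1.13 and that of miR-19 was 1.52 (limma adjusted p = 0.568), and without ΔmiR-19 the latter was 0.16.

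Among miRNAs that carry the seeds of the cluster, the miR-302 guides were the main holders of AAGUGCU in these libraries. Of the arms with a matched sequence, miR-302b-3p and miR-302d-3p were pooled with miR-291a-3p, miR-294-3p and miR-295-3p. They made up 88.1% of the reads of this pool in wild type and 89.4% to 95.2% in the mutants. The pool leaves out miR-302a-3p (815 to 1501 nRPM), whose mature sequence was not in the RefSeq table. The Mir302a hairpin holds the stretch AAGUGCU, so the shares among all reads with this seed were not measured. The 3 relatives from the miR-290 to miR-295 cluster together held 569 nRPM in wild type and 172 nRPM in ΔmiR-18, their lowest library. Of these, miR-295-3p held 66.6 to 333 nRPM and was highest in wild type. The fixed list of 5 relatives also held miR-292-3p (87.4 to 167 nRPM) and miR-291b-3p, which were not among the carriers of this seed in the RefSeq table. None of its 5 members was called by limma, and 3 of 35 pairs were 2-fold higher than wild type and 8 lower (median log2 ratio -0.21). Over all miRNAs these shares were 8.82% and 9.16%.

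The seed of miR-367-3p was held almost entirely by other miRNAs. The share of miR-367-3p among the reads with this seed was largest in ΔmiR-92 (3.29%), then ΔmiR-17,18 (1.94%), full deletion (1.59%), ΔmiR-18 (1.17%), ΔmiR-17,18,92 (0.900%), ΔmiR-17 (0.248%), wild type (0.103%) and ΔmiR-19 (0.0810%). The pool as a whole was at 276167 nRPM in wild type and was smallest where miR-92 was deleted, in ΔmiR-92 (57423 nRPM), ΔmiR-17,18,92 (55547 nRPM) and the full deletion (45173 nRPM). Of its relatives outside miR-17~92, none of the 4 tested was called by limma, and 3 of 28 pairs were 2-fold higher and 0 lower (median log2 ratio -0.14). Over all miRNAs these shares were 8.82% and 9.16%. miR-92a-3p had 2 rows that stayed apart, and the higher one, taken as the deleted cluster's, was the most abundant relative at 199542 nRPM in wild type. miR-25-3p came next and ranged from 24804 nRPM in the full deletion to 50518 in ΔmiR-17. The lower row of miR-92a-3p, at 8491 nRPM in ΔmiR-17,18,92 to 22952 nRPM in wild type, was left out of the tests with the higher one.

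The miR-290 to miR-295 cluster, the other large miRNA cluster of pluripotent cells, had a row for all 14 arms of the fixed list, 11 of them at the level of testing and 1, miR-290-3p, with 0 reads in several libraries, wild type among them. It summed to 3161 nRPM in wild type and between 1641 (ΔmiR-18) and 3214 nRPM (ΔmiR-92) in the mutants, less than the miR-302/miR-367 cluster in each library. None of the 11 was called by limma. This cluster had 8 of 77 pairs 2-fold higher and 21 lower (median log2 ratio -0.40), beside 8.82% higher and 9.16% lower over all miRNAs. Its most abundant arms were miR-292-5p (437 to 1161 nRPM) and miR-293-3p (343 to 942 nRPM). The let-7 guides, which rise as cells differentiate, summed to between 2601 nRPM (full deletion) and 4230 nRPM (ΔmiR-17), with none of 8 called and 2 pairs higher and 2 lower of 56 (median log2 ratio 0.06). let-7f-5p (821 to 1298 nRPM) and let-7a-5p (527 to 1149 nRPM) were the most abundant of them.

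Of 313 miRNAs outside the cluster and outside miR-17~92 with an average of 100 nRPM or more, those whose log2 level was most like that of the summed cluster over the 8 libraries were miR-126-3p (r = 0.88), miR-374-3p (0.81), miR-374c-5p (0.80), miR-708-5p (0.76) and miR-410-3p (0.75). miR-374-3p and miR-374c-5p had the same read count in most libraries (722 in wild type) and count as 1 pattern. miR-126-3p, a miRNA of endothelial cells, ran from 6053 nRPM in ΔmiR-17,18,92 to 14901 in ΔmiR-17,18, which were also the lowest and highest libraries of the cluster. The endothelial list, miR-126-3p with miR-126-5p, had both members in every library. It summed to 10720 nRPM in wild type and 7371 to 17558 nRPM in the mutants, and had r = 0.95 with the summed cluster. This r adds no separate support: miR-126-3p, the closest of the 313 miRNAs in these same libraries, made up most of the sum. The members of the endothelial list did not move alike. In ΔmiR-17,18, where miR-126-3p was highest, miR-126-5p held 2657 nRPM, near its wild-type level of 2673 nRPM. miR-126-5p was highest in ΔmiR-92 (4763 nRPM) and, like miR-126-3p, lowest in ΔmiR-17,18,92 (1318 nRPM). The other 6 marker lists had r between -0.37 and 0.15. These are descriptions over the same 8 libraries, and the part of endothelial cells in the level of the cluster was not tested.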

How the data were processed

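The members and lists were chosen with earlier results of these data known. Trizol extraction and library construction by a published method are given per the labels' protocols. Per the submitters' processing notes, STAR 2.2.0, SAMtools 0.1.19, featureCounts and Subread 1.4.2 were used with mm9. Their parameters and the treatment of reads with several places are not given in the sources used here, and the labels name no batch. Values in the authors' table are a deposited signal for each mature miRNA and library: in each column, 100% of the values were whole multiples of the smallest within 0.001 reads, which gave back the reads. Of its 1046 rows, repeats of 1 accession within 10% were merged, the higher being kept (986 rows). No row of the 7 arms was repeated. All columns were mapped to a library by name.

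Deposited values were multiplied by 0.116, so that the 8 genotype libraries average a total of RPM size (nRPM). Log2 values had 1 nRPM added, which understates changes of low miRNAs. limma 3.58.1 (trend) was the main test, and edgeR 4.0.16 and DESeq2 1.42.0 on recovered reads were alternatives, in R 4.3.3. Only limma was tested on simulated data. Ratios had exact conditional intervals and levels exact Poisson intervals (scipy 1.17.1), at 95%. Correlations had exact permutation p-values, taken over reorderings of the 8 libraries. The p-values of the additive model are set against its residual. In that residual, differences between libraries and non-additive effects of combined deletions cannot be told apart. With 1 library per genotype, no p-value here measures the spread within a genotype. Named were all 7 arms, the other arms of their hairpins, the 5 miRNAs of 100 nRPM or more most like the summed cluster, and each list's 2 most abundant members. Alternatives changed the pseudocount, scaling, filter, repeated rows, tool, reference and set of libraries.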

Additional observations from a re-analysis of the deposited data

Results flagged for a closer look

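The library of reads that were given to no genotype (3024805 reads) entered no comparison of genotypes, and 4 arms were above the wild-type library in it. miR-302b-3p stood at 1.33 times wild type there, at 3195 nRPM, and miR-302a-3p at 2.37 times, at 1934 nRPM. miR-302c-3p stood at 5.46 times wild type, at 304 nRPM, and miR-367-3p at 5.59 times, at 1594 nRPM. The other 3 arms were below wild type there: miR-302d-3p at 0.676, miR-302a-5p at 0.573 and miR-302b-5p at 0.421 of its level. All 7 ratios are to the 1 wild-type library, and the levels of miR-302b-3p, miR-302c-3p and miR-367-3p lay inside the range of the mutants while that of miR-302a-3p lay above it.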

How the results depend on the processing

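No paired analysis was possible because each genotype has 1 library. No arm was called by limma under the other pseudocounts (0.1 and 10), 4 other scalings, the lower of repeated rows, no filter, a filter of 100 nRPM, edgeR or DESeq2. With each library left out in turn the count was 0, and between 0 and 1 where miR-17~92 was included in the adjustment (miR-367-3p without ΔmiR-92, an alternative added after seeing the data). The count past 2-fold went from 14 to 4 against the median of the other 7 libraries, where miR-302c-3p turned from higher to lower in ΔmiR-17 (log2 -0.35), ΔmiR-18 (-0.49) and ΔmiR-17,18,92 (-0.29). That alternative replaces the low wild-type library as the reference. It was 11 at the nearer bound of the counting interval. The median r of the guide pairs was between 0.23 and 0.41 with 1 library left out, with 0 to 1 pairs past the threshold, and 0.46 without miR-367-3p, added after seeing the data. The ratio of the highest to the lowest summed cluster was 1.54 with plain totals (ΔmiR-17 against ΔmiR-18), 1.53 with totals outside miR-17~92, 1.66 with median-ratio factors and 1.60 with TMM. The cause of these shifts was not tested. miR-302b-5p had 74 to 168 reads per library, which limits its ratios. The fits over all 8 libraries left 3 residual degrees of freedom, and limma's test also drew on the variance of the other miRNAs.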
